A study of Homo sapiens with 7 samples.

Results

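The receptors by which platelets and their precursors, the megakaryocytes, hold on to damaged vessel walls were examined in MEG-01 cells with and without knockdown of RBM15. The set was chosen by name and comprises 7 genes out of the 62238 genes in the count files: ITGA2B and ITGB3, GP1BA, GP1BB, GP5, GP9 and GP6. MEG-01 is a human megakaryoblastic leukemia cell line, and RBM15 is an RNA-binding protein found in nuclear splicing speckles. RNA was sequenced from 3 cultures, 1 control and 2 knockdown lines, each stably carrying a different short hairpin RNA, shRBM15#1 or shRBM15#2. All 3 cultures are labelled as holding lentiviral transgenes, were at passage 5, and were harvested in exponential growth. The control has no hairpin named in its label. RBM15-bound RNA was measured by RIP-seq, immunoprecipitation of a protein followed by sequencing of its attached RNA, with 4 libraries from the same cell line. The labels give 2 of these libraries to normal immunoglobulin and 2 to an RBM15 antibody.

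Integrin αIIb (ITGA2B, CD41) and integrin β3 (ITGB3, CD61) form the fibrinogen receptor αIIbβ3, the most abundant integrin of platelets. Its affinity for fibrinogen is switched from inside the cell through talin and kindlin-3. GPIbα (GP1BA), GPIbβ (GP1BB), GPV (GP5) and GPIX (GP9) form the GPIb-IX-V complex, which tethers platelets to von Willebrand factor. GPVI (GP6) is the collagen receptor and signals through the Fc receptor γ chain. In megakaryocyte development αIIb appears early, and the GPIb-IX-V complex and GPVI are features of later cells. Promoters of these genes are textbook targets of GATA1 and of ETS-family factors such as FLI1.

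The hairpins are shown because the knockdown defines the comparison. Both sequences, written 5′ to 3′, matched the coding sequence of RBM15 on the plus strand of chromosome 1 (GRCh37), at chr1:110882526-110882545 for shRBM15#1 and chr1:110884588-110884607 for shRBM15#2. Each matched all 9 annotated RBM15 transcripts, and no annotated transcript of another gene held either sequence without mismatch.
shRBM15#1: gcggaatacaagactctgaa
shRBM15#2: ccaatggttatgccattctt

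Values below follow the order control, shRBM15#1, shRBM15#2. RBM15 had 3970, 1957 and 2121 reads, which is 80.2, 43.7 and 40.7 CPM (counts scaled to library size by the trimmed mean of M-values). Both lines lay below the control. The log2 fold change was -0.93 (SE 0.23) with an adjusted p of 0.0908 by edgeR's quasi-likelihood test, so the transcript of the targeted gene did not pass the limit of an adjusted p under 0.01. Across all 24887 genes tested, 86 passed, 17 higher and 69 lower in the knockdown lines, which is 0.346% of genes. With 1 control, the spread in the test comes from the 2 knockdown lines alone, in part borrowed over all genes. A difference between this control culture and other control cultures cannot be told apart from an effect of the hairpins. Reads on exon bins totalled 53230029, 41629454 and 52458857.

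None of the 7 receptor genes passed this limit: 5 were tested, 1 (GP9) had too few reads, and 1 (GP1BB) had no counted exon. ITGA2B was lower and ITGB3 higher than the control in both lines, and the other tested members took either side. Against 0.346% of all genes, a count of 0 among 5 says little about the members. No member passed at an adjusted p under 0.05 in this fit, nor by DESeq2 at 0.01. Before adjustment, 3 of the 5 members (ITGB3, ITGA2B and GP5) were under 0.05, as were 18.8% of all genes tested. GP5, with 3 control reads, reached the summed count of 30 needed for a test only through the knockdown lines, where it is higher. Its place in this count is therefore no evidence of a difference. With the filter on low counts removed, ITGB3 alone passed, at an adjusted p of 6.76e-07 by edgeR. That setting also moved the median log2 fold change over all genes tested from 0.017 to 0.44.

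**Figure D1:**
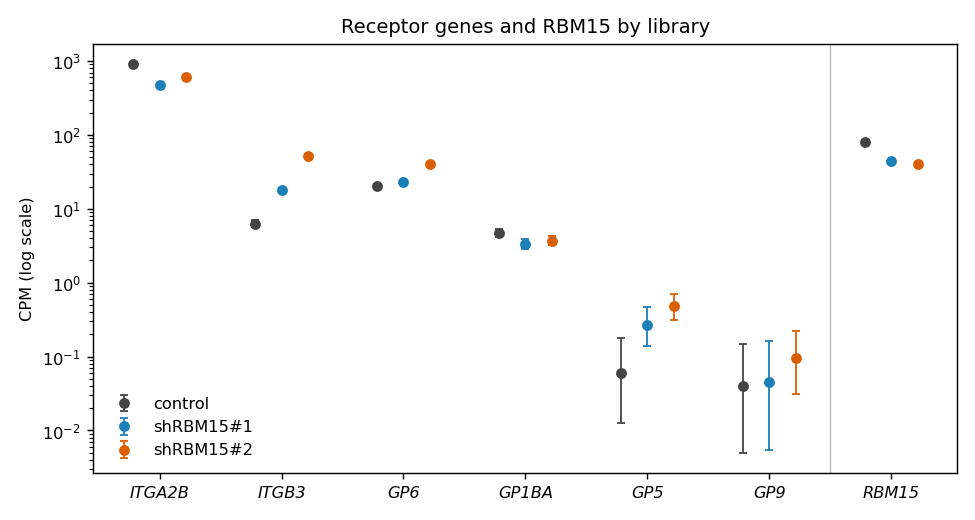
CPM (log scale) of 6 receptor genes and of RBM15, the targeted gene, in the control, shRBM15#1 and shRBM15#2 libraries, 1 point per library with its exact 95% Poisson interval. The interval covers counting error only and takes summed bin counts as independent reads. The points of ITGB3 are ordered control, shRBM15#1, shRBM15#2 from 6.28 to 51.8 CPM, and those of ITGA2B lie between 475.5 and 918.7 CPM with the control highest.

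Integrin αIIb was by far the most strongly counted receptor. ITGA2B (ENSG00000005961, chr17:42449548-42467017, minus strand, GRCh37) had 45463, 21287 and 31658 reads, or 918.7, 475.5 and 606.8 CPM. Both knockdown lines were below the control, and shRBM15#1 was the lower of them. The log2 fold change was -0.76 (SE 0.24), with an adjusted p of 0.152 by edgeR. By line it was -0.94 for shRBM15#1 and -0.60 for shRBM15#2. The counting intervals of the 3 libraries were 910.3 to 927.2, 469.1 to 481.9 and 600.1 to 613.5 CPM, and they did not overlap. A read that crosses several bins is counted in each, so these intervals are too narrow. Counting error covers no difference between cultures. In fold terms the control was 1.93 times shRBM15#1 and 1.51 times shRBM15#2.

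Its partner stood on the other side. ITGB3 (ENSG00000259207, chr17:45331193-45391109, plus strand) had 311, 803 and 2702 reads, or 6.28, 17.9 and 51.8 CPM. Both lines were above the control, by 2.85 times and 8.24 times. The fitted log2 fold change was 2.47 (SE 0.58) with an adjusted p of 0.0823 by edgeR. The lines themselves were 1.53 apart on the log2 scale (95% exact binomial interval of the count ratio 1.42 to 1.65), about as far as shRBM15#1 was from the control (1.51). By the unadjusted p, ITGB3 ranked 689 of 24887 genes, the highest rank of the tested members.

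Only part of ITGB3 was counted. Its 5 bins cover 2128 of the 6829 exon bases in a current annotation (31.2%), and the exons shared with an overlapping readthrough gene carry no bin of ITGB3. A bin is a stretch of exon between annotated splice or gene boundaries. The longest, 1678 bases at chr17:45387505-45389182, held 286, 739 and 2488 of the reads, which is 92.0%, 92.0% and 92.1% of the gene's total. The other bin with a part in the coding sequence and more than 300 bases (chr17:45368455-45368793) had 11, 38 and 114 reads, in the same order of libraries. No bin of ITGB3 was higher in the control than in shRBM15#2.

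GPVI differed mainly in 1 line. GP6 (ENSG00000088053, chr19:55525073-55549632, minus strand) had 1015, 1034 and 2124 reads, or 20.5, 23.1 and 40.7 CPM. The shRBM15#1 line was 1.13 times the control and shRBM15#2 1.98 times. The log2 fold change was 0.64 (SE 0.36, adjusted p = 0.372 by edgeR), and the lines differed by 0.82 on the log2 scale (interval 0.71 to 0.93). The Fc receptor γ chain gene FCER1G, named here for its role and after its values were seen, had 16.3, 14.3 and 24.0 CPM, again highest with shRBM15#2, with a log2 fold change of 0.23 (SE 0.35, adjusted p = 0.766 by edgeR).

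The genes of the von Willebrand factor receptor were weakly counted or not counted. GP1BA (ENSG00000185245, chr17:4835572-4838318, plus strand) had 235, 151 and 194 reads, or 4.75, 3.37 and 3.72 CPM. Both lines were below the control, with a log2 fold change of -0.42 (SE 0.37, adjusted p = 0.580 by edgeR). Its long bin, with 221, 145 and 183 of the reads, overlaps an exon of CHRNE, and the libraries hold no strand information, so reads of CHRNE there cannot be told apart. In the 69 bases of the first exon, which no other gene covers, there were 14, 6 and 11 reads.

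GP5 (ENSG00000178732, chr3:194115550-194119995, minus strand) had 3, 12 and 25 reads. This is 0.0606, 0.268 and 0.479 CPM. The gene reached the summed count of 30 needed for a test only through the knockdown lines. The log2 fold change of 2.58 was the largest among the members and had the largest error (SE 1.08, adjusted p = 0.249 by edgeR). Against the 3 control reads the ratio of shRBM15#2 was 7.90, with an exact binomial interval of 1.27 to 5.35 on the log2 scale. The interval for shRBM15#1 was 0.25 to 4.61. The 3 genes whose 2 line values lay nearest to those of GP5, over the 2 lines and by Euclidean distance, were CLEC1B (0.0872 log2 units away), SAMD15 (0.130) and AVPR1A (0.138). CLEC1B encodes the platelet podoplanin receptor CLEC-2 and had 11, 41 and 86 reads. AVPR1A encodes a vasopressin receptor and had 5, 18 and 40 reads. SAMD15 had 10, 42 and 77 reads. None of the 3 passed the limit by edgeR.

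GP9 (ENSG00000169704, chr3:128779622-128781249, plus strand) had 2, 2 and 5 reads in the 3 libraries, under the summed count of 30 needed for a test. All 877 bases of its annotated exons were covered by bins, so the gene model does not limit the count. GP1BB has no bin: over its span, chr22:19711062-19712294, the files hold 0 bins of any gene. Its upstream neighbour SEPTIN5, from which readthrough transcripts into GP1BB are annotated, had 15, 122 and 76 reads over 43 bins, the last of which ends at base 19712295. These counts say nothing of GP1BB itself. The level of the complex as a whole could therefore not be given.

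Compared per length within a library, the order of the members was ITGA2B, GP6, ITGB3, GP1BA in the control. Their levels were 165.5, 8.43, 2.95 and 1.90 CPM per kilobase of exon bin. In shRBM15#1 the order was the same, with GP6 at 9.49 and ITGB3 at 8.43 CPM per kilobase. In shRBM15#2 the middle pair changed places, ITGB3 at 24.3 and GP6 at 16.7. GP9 and GP5 were at most 0.134 in every library, and with 2 to 25 reads their order cannot be read. A read that crosses several bins is counted in each, so a gene with many short bins, such as ITGA2B with 55 bins of median width 81 bases, gets too high a level. In bins of at least 200 bases, an alternative added after seeing the data, ITGA2B stood at 45.0, 26.9 and 34.1 CPM per kilobase, and GP6 at 7.34, 8.50 and 14.4. ITGB3 stood at 2.98, 8.61 and 24.7 in these bins, which puts it just above GP6 in shRBM15#1 as well.

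The balance of the integrin's 2 chains differed between libraries. The level of ITGA2B per kilobase was 56.0 times that of ITGB3 in the control, 10.2 times in shRBM15#1 and 4.49 times in shRBM15#2. In bins of at least 200 bases the ratios were 15.1, 3.12 and 1.38. The size of the ratio thus rests on which bins are used, and its order over the 3 libraries was the same by both. ITGA2B over GP1BA in the long bins was 24.5, 20.2 and 23.6. The only GP1BA bin of this length overlaps an exon of CHRNE, whose reads there cannot be told apart. These are descriptions of single libraries with no test.

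**Figure D2:**
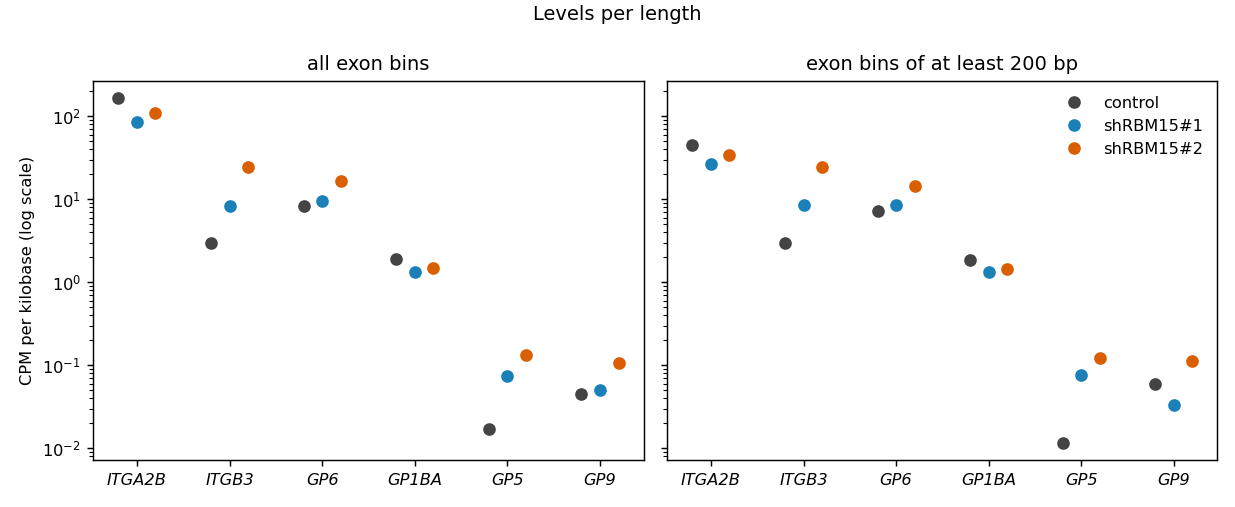
CPM per kilobase of exon bin (log scale) of 6 receptor genes in the control, shRBM15#1 and shRBM15#2 libraries, 1 point per library, from all exon bins (left) and from bins of at least 200 bases (right). ITGA2B in the control is at 165.5 with all bins and at 45.0 without the short ones, and ITGB3 is at 2.95 and 2.98.

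Since RBM15 was studied as a regulator of splicing, the use of single exons was compared relative to the rest of each gene. Of 234192 bins tested in all genes, 3392 (1.45%) passed the limits, a p under 0.05 before adjustment with a fold over 1.2. Of the 68 tested bins of the members, 0 passed by diffSpliceDGE, 0 passed an adjusted p under 0.05, and the smallest p before adjustment, by this test across all bins, was 0.213. The bins were 51 of ITGA2B, 11 of GP6, 4 of ITGB3 and 2 of GP1BA. The relative log2 fold changes of ITGA2B bins ran from -0.23 to 0.37 and those of GP6 bins from -0.64 to 0.45.

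In ITGA2B, 54 of 55 bins were lower in both lines than in the control. The first exon (chr17:42466654-42466873), which holds the start of the coding sequence, took 4.51%, 5.54% and 5.51% of the gene's reads. The 95% Wilson intervals were 4.32 to 4.70 in the control, 5.24 to 5.86 and 5.27 to 5.77. Relative to the gene its log2 fold change was 0.29, and the test did not call it. The 10 bins of at least 60 bases outside every annotated coding sequence, several of them parts of introns kept in annotated transcripts, held 4.42%, 4.48% and 4.43% of the reads over 2183 bases. The intervals of these 3 shares overlap.

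In GP6, the bins allow 3 isoform features to be followed. The sequence across the end of an exon is printed because the 2 annotated ends, 4 bases apart, both stand before a GT. It covers chr19:55527035-55527062 (GRCh37, minus strand, written 5′ to 3′), and the capitals mark the 4 bases that only the longer exon keeps.
GP6 exon end: actctccagctgGTGAgtaagtcatcct
These 4 bases had 16, 22 and 46 reads beside 54, 56 and 135 in the shorter part of the exon. Their share of the summed counts of both bins was 22.9% (Wilson interval 14.6 to 33.95), 28.2% (19.4 to 39.0) and 25.4% (19.6 to 32.2). A read that crosses both bins is counted in each. The share is thus no estimate of how often the longer exon is used, which it understates, and the intervals do not allow for this. A cassette exon of 54 bases (chr19:55536586-55536639) took 2.96%, 3.00% and 2.68% of the gene's reads. A non-coding extension of 327 bases just upstream of an early exon (chr19:55543907-55544233) had 13, 3 and 8 reads, 1.28%, 0.29% and 0.38% of the total, too few for the test. Most of a further GP6 exon has no bin of its own, and 90.0% of the gene's exon bases were counted.

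**Figure D3:**
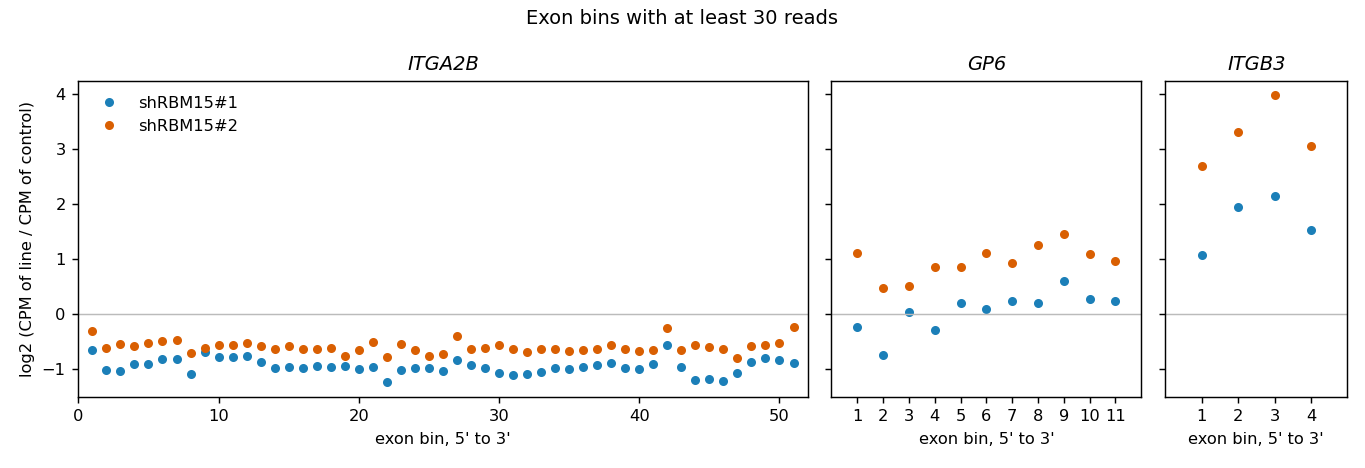
Log2 ratio of the CPM of each knockdown line to the control, 1 point per line and exon bin with at least 30 reads over the 3 libraries, in ITGA2B, GP6 and ITGB3, with bins in order from 5′ to 3′. The ITGA2B points lie in a narrow band below 0, shRBM15#2 lies above shRBM15#1 along GP6 and ITGB3, and no bin passed the limits for exon use.

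Of the 1515 significant RIP-seq sites listed by the authors, 0 carried a member's symbol and 0 lay within a member's span. A site was listed for 3.78% of the 24021 tested genes with a symbol, so 0 among 7 members says little about them. The nearest site to GP6 was 2.2 kb away and carried no gene name, and the nearest to GP1BA was 24.2 kb away in SPAG7. For the other members the nearest site was at least 107.8 kb away. The list holds only sites that passed, so binding below its limits, or on transcripts as scarce as those of GP5 and GP9, was not detectable. Among 92 genes that act with the receptors, 16 had 28 sites, which is 18.2% of the 88 that were tested in the RNA-seq. These 88 genes also had more reads than most, with a median of 42.8 CPM against 2.83 over the 24021 genes, and the part of this difference was not tested. These include introns of FLI1 and GATA1, 3 sites in RUNX1 and 5 in VAV1, which encodes a signaling protein downstream of GPVI. The site in FLI1 (chr11:128673166-128673681) had 6 and 157 reads in the libraries labelled normal immunoglobulin and 8 and 195 in those labelled RBM15 antibody. Over the 28 sites the ranges were 3 to 62 and 111 to 1226 for the first label, and 1 to 73 and 97 to 1915 for the second. In raw counts at these sites the libraries of each label thus differed from each other more than the labels did. The depth of the RIP-seq libraries is unknown here, so depth and a label that does not match its library cannot be told apart, and no comparison by antibody was made.

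Genes that act with the receptors were followed in 5 lists, of which 88 of 92 genes could be tested. Of these, 1 passed, beside 0.346% of all genes tested. The median log2 fold change was 0.03, against 0.02 over all genes tested.

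**Figure D4:**
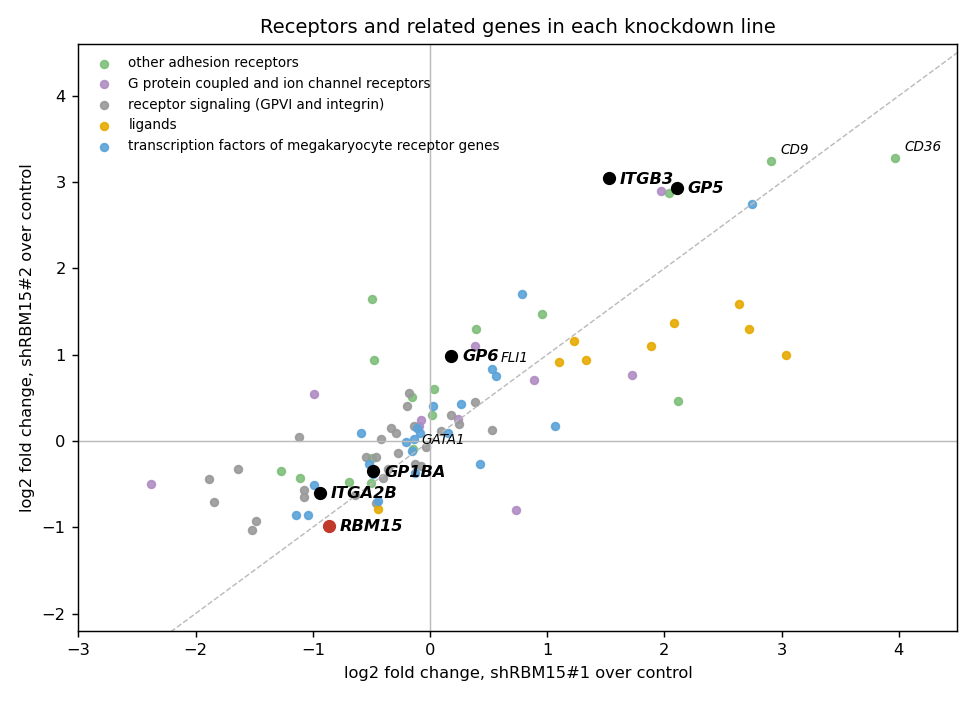
Log2 fold change over control in the shRBM15#1 line (horizontal) and the shRBM15#2 line (vertical) for the 5 tested receptor members (black), RBM15 (red) and the tested genes of 5 lists of related genes (colors), with a dashed line of equal values. FGB, listed at 0 reads in the control, is left out. ITGB3 (1.52 and 3.04) and GP6 (0.18 and 0.99) lie above the line, and CD36, at 3.97 and 3.28, is the one list gene that passed the limit.

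Of 17 other adhesion receptors tested, CD36 passed the limit as higher and none passed as lower. In both lines 8 of the 17 were higher and 6 lower, beside 40.1% and 39.4% of all genes tested. CD36, a receptor for thrombospondin and fatty acids found on platelets and also on erythroid cells, had 186, 2616 and 1902 reads, or 3.76, 58.4 and 36.5 CPM. Both lines were well above the control, with a log2 fold change of 3.66 (SE 0.39, adjusted p = 0.00497 by edgeR). The tetraspanin gene CD9, named after its values were seen, had 0.586, 4.40 and 5.56 CPM, with a log2 fold change of 3.08 (SE 0.48). It missed the limit, with an adjusted p of 0.0196 by edgeR, and passed with median-ratio size factors, without the filter and by DESeq2. The most strongly counted members of the list were integrin chains, ITGA5 (538.2, 221.5 and 422.7 CPM), ITGB1 (411.9, 288.6 and 293.8 CPM) and ITGAV (353.6, 315.7 and 502.9 CPM). ITGAV encodes the αv chain, the other partner of β3, and had a log2 fold change of 0.21 (SE 0.30, adjusted p = 0.746 by edgeR), with the lines on opposite sides of the control. The tetraspanin gene CD151 had 152.5, 152.9 and 188.3 CPM.

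Of 10 receptors of thrombin, ADP, prostaglandins and other soluble agonists tested, 0 passed by edgeR or DESeq2. Before adjustment 2 (20%) were under 0.05, beside 18.8% of all genes tested. F2RL3, the thrombin receptor PAR4, had 81.4, 75.6 and 92.2 CPM, with a log2 fold change of 0.04 (SE 0.24). F2R, the thrombin receptor PAR1, had 21.7, 28.1 and 46.6 CPM, and its highest library was again shRBM15#2. The prostaglandin E receptor gene PTGER3 had 67.9, 79.7 and 81.3 CPM and the ADP receptor gene P2RY1 had 29.4, 27.7 and 34.7 CPM. The median log2 fold change of this list was 0.19.

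Of 29 signaling genes downstream of GPVI or of the integrin, 0 passed by edgeR or DESeq2. Before adjustment 7 (24.1%) were under 0.05, beside 18.8% of all genes tested. Of the 29, 17 lay lower in both lines and 5 higher in both, beside 39.4% lower in both and 40.1% higher in both among all genes tested. The median was -0.21. FLNA, which encodes filamin A, the anchor of GPIbα to actin, had 1909.5, 1375.2 and 1162.0 CPM, and both lines were below the control (log2 fold change -0.59, SE 0.23, adjusted p = 0.216 by edgeR). FERMT3, which encodes kindlin-3, had 505.3, 392.1 and 404.5 CPM. YWHAZ, which encodes the 14-3-3 protein bound by GPIbα, had 585.5, 531.1 and 485.8 CPM, and the integrin activator gene RAP1B had 347.7, 410.8 and 398.3 CPM.

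Among the ligands, 9 of 10 tested genes were above the control in both lines, with a median log2 fold change of 1.65, beside 40.1% higher in both and a median of 0.02 among all genes tested. By edgeR 0 passed, by DESeq2 1, and 7 were under 0.05 before adjustment, beside 18.8% of all genes tested. FGB, named after its values were seen, had 0 control reads, and 27 and 16 in the lines. With an assumed 3 reads in the control, the lines together were 7.32-fold higher, which is no lower bound for either line. The list's median stayed at 1.65 with FGB at that value. Most of these genes were scarce. FGB reached the summed count of 30 only through the knockdown lines, where it is higher. With 2 knockdown libraries to 1 control, this filter favours scarce genes that are higher in the lines. The values over all genes were not matched for level, so the tally cannot be read as a trait of the ligands. THBS1, which encodes thrombospondin-1, had 28.5, 104.7 and 61.2 CPM (log2 fold change 1.54, SE 0.34, adjusted p = 0.0694 by edgeR) and passed by DESeq2 and without the filter. FN1, which encodes fibronectin, had 2.69, 6.72 and 5.16 CPM, and the collagen gene COL3A1 had 0.525, 2.21 and 1.36 CPM. The exception was SELPLG, which encodes the P-selectin ligand, at 34.4, 25.1 and 20.0 CPM.

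Of 22 transcription factors that act on megakaryocyte receptor genes, 0 passed by edgeR or DESeq2. Before adjustment 8 (36.4%) were under 0.05, beside 18.8% of all genes tested. GATA1 had 71.7, 64.2 and 66.05 CPM, with a log2 fold change of -0.14 (SE 0.22, adjusted p = 0.780 by edgeR). FLI1 had 61.8, 88.4 and 110.1 CPM, both lines above the control, with a log2 fold change of 0.68 (SE 0.25, adjusted p = 0.202 by edgeR). RUNX1 had 128.0, 57.6 and 70.5 CPM, with a log2 fold change of -0.998 (SE 0.23, adjusted p = 0.0777 by edgeR). ETV6 had 93.4, 44.9 and 51.5 CPM, with a log2 fold change of -0.954 (SE 0.23, adjusted p = 0.086 by edgeR). For RUNX1 and ETV6 both lines were below the control. In the list of 22, 8 lay higher in both lines, 9 lower in both and 5 on opposite sides. Among all genes tested, 40.1% were higher in both and 39.4% lower in both. GATA1, FLI1, RUNX1 and ETV6 are named for their role at the receptor genes and after their values were seen. Of the most strongly counted members, TAL1 had 236.1, 346.9 and 399.3 CPM and LYL1 had 202.9, 101.3 and 142.6 CPM. NFE2 had 177.9, 211.7 and 238.9 CPM, and LMO2, which bridges TAL1 and GATA1, had 161.5, 163.3 and 214.5 CPM.

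Promoters of 5 of the 7 members were found in the RefSeq table (GRCh38.p14): ITGA2B, GP1BB, GP5, GP9 and GP6. The 250 bases before the start were searched on both strands for GATAA or GATAG, the core of GATA sites, and for CTTCCT or CTTCCG, a core of ETS sites. The letters GATAA or GATAG were found in all 5 windows, and in 31.9% of the 35116 promoters of the table. The ETS letters were found in 4, all but ITGA2B, and in 40.8% of all promoters, and no match of one kind overlapped one of the other in these 5 windows. The 200 bases before the start are shown for the members with a printed fold change, with both kinds of match in capitals. They are chr17:44389650-44389849 (minus strand) for ITGA2B, chr19:55038265-55038464 (minus strand) for GP6 and chr3:194399267-194399466 (minus strand) for GP5.
ITGA2B promoter: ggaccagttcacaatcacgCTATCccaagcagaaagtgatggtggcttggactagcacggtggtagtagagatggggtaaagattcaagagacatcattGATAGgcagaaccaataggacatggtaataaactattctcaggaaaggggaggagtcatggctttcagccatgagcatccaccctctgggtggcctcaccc
GP6 promoter: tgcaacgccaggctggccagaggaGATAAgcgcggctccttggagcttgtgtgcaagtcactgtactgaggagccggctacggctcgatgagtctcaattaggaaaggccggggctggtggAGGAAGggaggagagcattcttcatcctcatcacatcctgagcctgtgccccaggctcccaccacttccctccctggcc
GP5 promoter: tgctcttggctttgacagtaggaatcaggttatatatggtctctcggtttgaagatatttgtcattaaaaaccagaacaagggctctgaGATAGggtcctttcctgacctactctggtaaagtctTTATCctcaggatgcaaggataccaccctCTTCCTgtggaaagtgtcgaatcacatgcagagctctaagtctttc
GP6 has 1 GATA match 176 bases before the start and 1 ETS match 79 bases before it, GP5 has 2 GATA matches and 1 ETS match, and ITGA2B has 2 GATA matches. The letters are a description and no measure of binding.

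Cell type markers also differed between the libraries. The summed level of 11 megakaryocyte and platelet markers was 229.0, 170.2 and 338.1 CPM. RGS18 took most of this sum in every library, and without it the sums were 37.1, 63.4 and 164.6 CPM, in which both lines lay above the control. In single markers, 9 of the 11 were above the control in shRBM15#1 and 8 in shRBM15#2. Among all genes tested, 40.1% were higher in both lines. PF4 (3, 4 and 2 reads) and TREML1 (10, 21 and 8 reads), named here for their few reads, are among the 9. Of the 11, 2 were under 1 CPM in every library, among them platelet factor 4 (PF4) with 2 to 4 reads. TUBB1, the platelet β1-tubulin gene, was the marker of this list that passed (1.05, 10.9 and 8.89 CPM, log2 fold change 3.23, SE 0.42, adjusted p = 0.00990 by edgeR). The summed level of 11 erythroid markers was 945.8, 4385 and 4324 CPM. All 11 were above the control in both lines, beside 40.1% of all genes tested. By edgeR 4 of the 11 passed the limit, beside 0.346% of all genes tested. They were HBG1, HBG2, HBA2 and ALAS2, which encode globins and the first enzyme of heme synthesis. HBG2 took most of this sum, with 707.3, 3541 and 3488 CPM, and reads of the near-identical globin copies are uncertain between them. Without HBG2 the sums were 238.5, 843.9 and 836.0 CPM. Of 9 myeloid markers, CTSG, the cathepsin G gene, passed the limit as lower (95.8, 3.73 and 8.55 CPM, log2 fold change -3.96, adjusted p = 0.00426 by edgeR). The list had no common direction: 6 of the 9 were above the control in shRBM15#1 and 4 in shRBM15#2. By edgeR or DESeq2, 0 lymphoid and 0 fibroblast or epithelial markers passed. Before adjustment, 1 of 6 lymphoid and 5 of 7 fibroblast or epithelial markers were under 0.05, beside 18.8% of all genes tested. Above the control were 4 lymphoid markers in shRBM15#1 and 3 in shRBM15#2, and 4 fibroblast or epithelial markers in each line. The part of such differences in cell state in the receptor values was not tested. In bulk RNA, fewer cells with a transcript and less of it per cell cannot be told apart.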

How the data were processed

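The RNA-seq comprised 3 MEG-01 libraries and the RIP-seq 4. The RNA-seq reads were paired and held no strand information. The authors mapped them with STAR to GRCh37 under the Ensembl GRCh37.70 models and deposited raw counts for each exon bin. The deposited DEXSeq table, with log2 fold changes and p-values of the authors' own comparison, was used only for bin positions and to check that all 1875444 counts were identical. The authors also deposited a list of 1515 significant RIP-seq peaks whose positions, annotation and raw counts per library were used, and whose fold changes and p-values were not. Lines that name no gene held 23.2% of reads in the control, 32.0% in shRBM15#1 and 23.5% in shRBM15#2. They were left out of library sizes and tests.

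Bin counts were summed per gene and tested with edgeR 4.0.16 in R 4.3.3 (trimmed mean of M-values, quasi-likelihood test, summed count of at least 30, Benjamini-Hochberg over all genes, called at an adjusted p under 0.01). Samples were grouped by their labels as 1 control and 2 knockdown lines, so 1 residual degree of freedom was left per gene. The quasi-likelihood fit draws each gene's spread towards a trend over all genes, so part of it is borrowed from other genes. The p-values measure only the spread between these samples. Exon use was tested by edgeR's diffSpliceDGE. A bin entered with 30 or more reads over the libraries, and a gene with 2 or more such bins. Scripts were tested on simulated data. Levels per length are CPM summed over bins per kilobase. Intervals are 95% exact Poisson for CPM, exact binomial for ratios and Wilson for shares, and they cover counting error only, since the reads carry no molecular identifiers. Reads per gene are summed bin counts, in which a read that crosses several bins enters more than once. The intervals do not allow for this and are too narrow for genes with many short bins. Gene symbols came from GENCODE v44 lifted to GRCh37, which also gave spans and exons, and promoters from RefSeq (GRCh38.p14). The hairpins came from the study's supplementary file.

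Named genes were the members, RBM15, the genes of each list that passed the limit, the 4 with the highest mean CPM of each list, and the 3 genes nearest to the member with the largest log2 fold change. Others are marked in the text. Of the 92 list genes, 90 matched a gene in the files. The members and lists were chosen with earlier results of these data known. Alternatives were other size factors, no filter or a summed count of at least 300, DESeq2 1.42.0, bins that no other gene covers, each knockdown line left out, and other bins for levels.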

Additional observations from a re-analysis of the deposited data

How the results depend on the processing

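No paired analysis was possible because there is 1 control library and the groups share fewer than 2 replicate numbers. The direction of the 5 tested members was the same under every alternative that could be run. Over the tests, the log2 fold change ranged from -0.89 to -0.63 for ITGA2B (adjusted p 0.0811 to 0.229), from 2.36 to 2.59 for ITGB3 (adjusted p 6.76e-07 to 0.354), from 0.52 to 0.77 for GP6, from 2.46 to 2.63 for GP5 and from -0.70 to -0.28 for GP1BA, where the low end comes from the 1 exon that no other gene covers. Without the filter on low counts ITGB3 passed at 2.36, and 1 member and 8 list genes were called. That setting tests 53542 genes, calls 801 and moves the median of all genes to 0.44. List genes called numbered 2 with size factors, 3 by DESeq2, 0 at a summed count of at least 300, where 0 of 12994 genes passed, and 2 at an adjusted p under 0.05. Over all genes, 191 were called with size factors and 484 by DESeq2. GP5 could not be fitted at a summed count of at least 300. When 1 knockdown line was left out, only the fold change could be given, from -0.94 to -0.60 for ITGA2B, 1.52 to 3.04 for ITGB3, 0.18 to 0.99 for GP6, 2.11 to 2.93 for GP5 and -0.48 to -0.35 for GP1BA. The ITGB3 value rests most on shRBM15#2, and GP6 is 0.18 without it. In bins of at least 200 bases, chosen after seeing the data, the control level per kilobase was 45.0 for ITGA2B and 7.34 for GP6. Depth limits GP5 and GP9, with 2 to 25 reads per library, and the exon tests of ITGB3 and GP1BA, which rest on 4 and 2 bins.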

Other observations

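The antisense gene GP6-AS1 lies across the GP6 exon that has no bin of its own, and its bin there had 45, 27 and 79 reads in the control, shRBM15#1 and shRBM15#2. Without strand, reads of GP6 and of GP6-AS1 in this exon cannot be told apart. The 3 genes whose line values lay nearest to those of ITGB3, chosen after its values were seen, were CFI (16, 45 and 153 reads), UVRAG-DT (6, 18 and 54 reads) and ACKR1 (11, 26 and 111 reads), and none passed the limit by edgeR. Of the 11 megakaryocyte and platelet markers, 6 were highest in CPM in shRBM15#2, 4 in shRBM15#1 and 1, RGS18, in the control. PPBP, the platelet basic protein gene, had 118, 274 and 2968 reads, and MMRN1, the multimerin-1 gene, had 66, 158 and 793 reads. Neither passed the limit, with adjusted p of 0.145 and 0.129 by edgeR. SELP, the P-selectin gene, had 454, 290 and 1501 reads, below the control in shRBM15#1 and above it in shRBM15#2. RGS18, a regulator of G protein signaling abundant in platelets, had 9494, 4784 and 9052 reads, with both lines below the control in CPM.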
